A study of Mus musculus with 4 samples.

Results

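Lysosome and autophagy genes were followed in mouse peritoneal macrophages with and without Setdb1, at rest and after lipid A. The set holds 40 listed genes, taken by a single gene symbol in the platform annotation, of 18193 genes that the array names in this way. Each gene was read from its brightest probe set, judged by the mean of its log2 signals on the 4 arrays. All 40 were measured, and all 40 had a signal at or above the array median on all 4 arrays.

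The KO mice carried LysM Cre/+:Setdb1 fl/fl and the WT mice carried +/+:Setdb1 fl/fl, so both groups had the floxed Setdb1 alleles and the Cre gene was present in the KO alone. The strain label is C57BL6/J. LysM is the lysozyme gene of myeloid cells, and the effect of Cre itself and that of Setdb1 deletion cannot be told apart. Setdb1 is a histone methyltransferase that places methyl groups on lysine 9 of histone H3. Adherent thioglycollate-elicited peritoneal macrophages received vehicle or lipid A, the active part of bacterial lipopolysaccharide and a ligand of the receptor TLR4, for 4 h. The dose of lipid A is 10 ng/ml in the series design and in the legend for this experiment, while the sample labels give 10 ug/ml. One array was run for each of the 4 conditions, which are vehicle and lipid A in WT and the same treatments in KO. There is therefore no replicate, no test and no error between mice, and how many mice gave each array and their age are not given in the sources used here.

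Lysosomes are acidic organelles in which proteases, glycosidases and lipases break down material taken up from outside or delivered from within the cell. Autophagy encloses cytoplasm in a double membrane, the autophagosome, which fuses with the lysosome. In macrophages this system digests engulfed particles and prepares antigen, and the transcription factors TFEB and TFE3 are known to switch on many of its genes through an E-box motif in their promoters.

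The values are linear probe set signals as the authors deposited them, and an equal trimmed mean on each array shows that whole arrays had been scaled. A log2 difference of 1 is a 2-fold difference, and a gene was called when it differed by over 2-fold and its higher signal reached the median of that array. The array medians lay between 65.1 and 84.2, and the 40 genes had signals between 166 and 102721. On each array 5 or 6 members exceeded 0.5 of the highest signal there, and saturation of such bright probe sets was not tested. The Setdb1 probe set read 589, 521, 346 and 386 in the order vehicle and lipid A in WT, then vehicle and lipid A in KO, and whether its probes lie in the floxed region is not known here. All 8 macrophage markers were at or above the median on all 4 arrays, but not at equal levels. Adgre1 (F4/80) read 10187, 9216, 3726 and 6633 in the same order. Csf1r and Mertk were 1.58-fold and 1.78-fold lower in KO than in WT under lipid A, but Cd14 was 1.97-fold higher there. Under vehicle Fcgr1 and Itgam were 1.94-fold and 1.21-fold higher in KO, so the macrophage markers did not move one way. Markers of other cells also differed between the arrays. The summed signal of 7 B cell markers was 2289 to 2462 in WT and 5147 to 5538 in KO, and without Cd22, which gave most of the WT sum, 409 to 514 in WT and 3920.4 to 4134 in KO. That of 6 neutrophil markers was 4276 to 5454 in WT and 1087 to 1212 in KO. That of 8 fibroblast and mesothelium markers was 1429 to 1603 in WT and 704 to 861 in KO. Without Mmp8, the highest, the other 5 neutrophil markers summed to 1856 to 1930 in WT and 812 to 870 in KO. Without Dcn, the other 7 fibroblast and mesothelium markers summed to 934 to 1050 in WT and 531 to 723 in KO. On each array 3 of the 6 and 5 of the 8 markers reached the array median. Single markers such as Ltf (11.3 in WT, 99.7 in KO) and Col1a1 (69.6 and 92.5) were higher in KO under vehicle. The 5 T and NK cell markers measured summed to 169 to 231 in WT and 469 to 492 in KO. Of these 5, the array median was reached by 0 and 1 in WT and by 2 and 4 in KO, under vehicle and lipid A. Resident large peritoneal macrophage markers summed to 7063, 19099.5, 9160 and 43753, most of it F10, and without F10 the other 7 summed to 506, 438, 1856 and 1599, higher on both KO arrays. Their part in the values below was not tested, and in such bulk RNA fewer cells of a type and less RNA per cell cannot be told apart.

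Promoter sequences were found for 32 of the 40 genes in the RefSeq promoter table (build GRCm38.p6, 250 bases before to 50 after each start site). Ctsb, Ctsh, Asah1, Npc1, Atp6v0d2, Atp6v1h, Becn1 and Atg12 are not in that table. The letters CACGTG, an E-box, stood in the promoters of 12 of the 32 genes (37.5%) and of 8.09% of the 27025 genes of the table. The longer form TCACGTGA, which contains CACGTG and is the type of E-box bound by TFEB and TFE3, stood in 6 of the 32 (18.75%) and in 1.12% of all genes. A gene counted when any of its listed starts held the letters. Both forms were searched on both strands, and each reads the same on either strand. The sites of the 6 genes are shown because the known regulators of lysosome genes in the set, TFEB and TFE3, bind this motif. The windows run 5′ to 3′ on the gene's strand, the capitals mark TCACGTGA, and the position counts from the start site.
Ctsa, chr2:164833750-164833777, plus strand, motif starting at -13: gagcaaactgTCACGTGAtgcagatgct
Ctsa, chr2:164833767-164833794, plus strand, motif starting at 5: atgcagatgcTCACGTGAccagagctac
Ctsd, chr7:142387909-142387936, minus strand, motif starting at -99: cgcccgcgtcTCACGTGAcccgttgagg
Mcoln1, chr8:3500463-3500490, plus strand, motif starting at -46: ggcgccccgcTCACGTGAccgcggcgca
Atp6v0d1, chr8:105566051-105566078, minus strand, motif starting at -4: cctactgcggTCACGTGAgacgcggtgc
Atp6v1a, chr16:44139374-44139401, minus strand, motif starting at -132: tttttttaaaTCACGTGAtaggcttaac
Gla, chrX:134601216-134601243, minus strand, motif starting at -228: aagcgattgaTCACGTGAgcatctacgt
Gla, chrX:134601183-134601210, minus strand, motif starting at -195: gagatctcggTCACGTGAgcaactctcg
Ctsa and Gla each held the motif at 2 places. A match is a run of letters and not a measured binding site.

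The GC box GGGCGG, the site of SP family factors, stood on either strand in 23 of the 32 promoters (71.9%), against 38.2% of all genes and 49.2% of coding genes. The antioxidant response element TGACNNNGC was in 7 of 32 promoters against 14.0% of all genes, and the AP-1 site TGANTCA was in 5 of 32 against 8.97%. The 250 bases before the start sites of Sqstm1, Smpd1 and Ctsk follow, since these 3 genes passed 2-fold in at least 1 comparison and have a single start in the table. Capitals mark the matches to GGGCGG or its reverse complement.
Sqstm1, chr11:50210821-50211070, minus strand: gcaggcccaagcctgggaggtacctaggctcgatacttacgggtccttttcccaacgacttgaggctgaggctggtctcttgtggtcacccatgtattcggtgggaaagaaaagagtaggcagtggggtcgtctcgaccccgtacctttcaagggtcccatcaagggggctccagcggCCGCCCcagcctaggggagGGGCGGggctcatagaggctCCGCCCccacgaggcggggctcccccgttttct
Smpd1, chr7:105554110-105554359, plus strand: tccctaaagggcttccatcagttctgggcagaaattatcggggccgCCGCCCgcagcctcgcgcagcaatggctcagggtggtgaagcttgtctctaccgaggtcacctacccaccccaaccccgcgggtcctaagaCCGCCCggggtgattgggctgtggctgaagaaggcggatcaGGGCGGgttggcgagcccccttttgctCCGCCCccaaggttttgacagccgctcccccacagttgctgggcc
Ctsk, chr3:95498960-95499209, plus strand: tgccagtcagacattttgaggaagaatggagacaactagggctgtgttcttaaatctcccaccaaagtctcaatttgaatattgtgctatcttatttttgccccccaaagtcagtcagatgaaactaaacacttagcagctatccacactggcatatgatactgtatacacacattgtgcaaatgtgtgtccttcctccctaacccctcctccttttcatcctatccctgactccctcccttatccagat
The Sqstm1 stretch has 63.2% G and C, 14 CpG and 3 GC boxes, and that of Smpd1 has 64.8% G and C, 16 CpG and 4 GC boxes. The Ctsk stretch has 43.2% G and C, no CpG and none of the 5 motifs. Tfeb, the other gene that passed 2-fold, has 3 start sites in the table with 14, 20 and 6 CpG in the 250 bases before them and 2, 1 and 1 GC boxes, and the array does not tell which start was used.

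The first question was how lipid A moved these genes in WT macrophages. Among the 40 genes 1 was over 2-fold higher after lipid A and none was over 2-fold lower, where 11.8% and 8.94% of the 12129 detected genes passed in these directions. The gene was Sqstm1, which codes for p62, the receptor that hands ubiquitin-tagged cargo to the autophagosome. Its signal went from 12417 to 30555, a difference of 2.46-fold. The median log2 difference was -0.12 over the 40 genes and -0.082 over all detected genes. In the other direction 26 of 40 genes were lower by any amount, beside 56.5% of all detected genes, and with each array centred on its own median 36 of 40 beside 69.0%. A share of 87.5% of the genes (35 of 40) stayed within 1.5-fold, against 62.9% of detected genes.

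The second comparison asked the same in KO macrophages. Sqstm1 was again the one gene over 2-fold higher, 3.89-fold, beside 11.2% of the 12293 detected genes. Tfeb and Smpd1 were over 2-fold lower, 2 of 40 beside 16% of detected genes. TFEB is the main transcription factor of lysosome genes, and SMPD1 is the acid sphingomyelinase that makes ceramide from sphingomyelin. Lower by any amount after lipid A were 33 of 40 genes, beside 60.6% of detected genes, and with median centring 26 of 40 beside 52.4%. The median over the 40 genes was -0.37, and over all detected genes -0.20. Fewer genes than in WT stayed within 1.5-fold, 29 of 40 (72.5%) against 52.7% of detected genes.

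**Figure D1:**
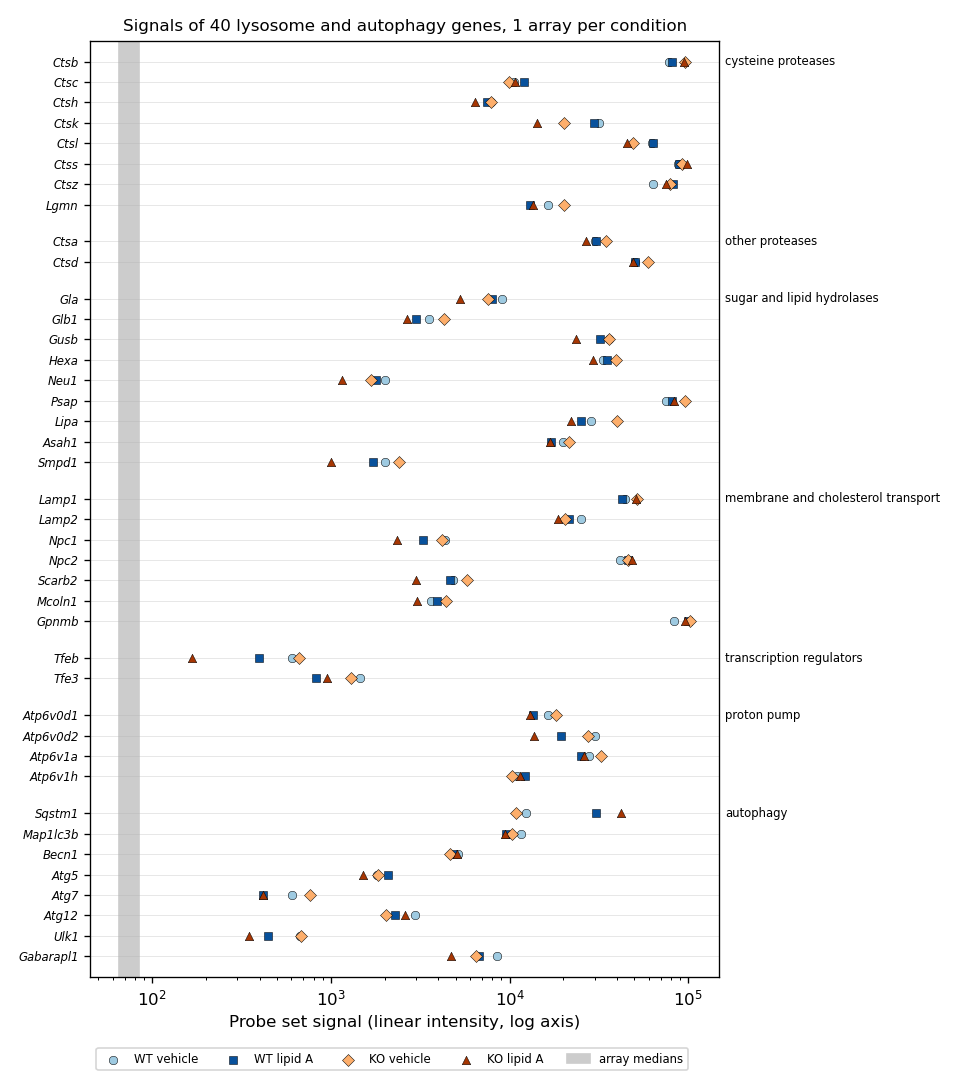
Signal of the brightest probe set of each of the 40 genes on the 4 arrays (x axis, linear intensity on a log axis), with genes grouped by role on the y axis and 1 point per array. All points lie right of the grey band, which spans the array medians of 65.1 to 84.2, and the widest spreads between arrays are those of Tfeb and Sqstm1.

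**Figure D2:**
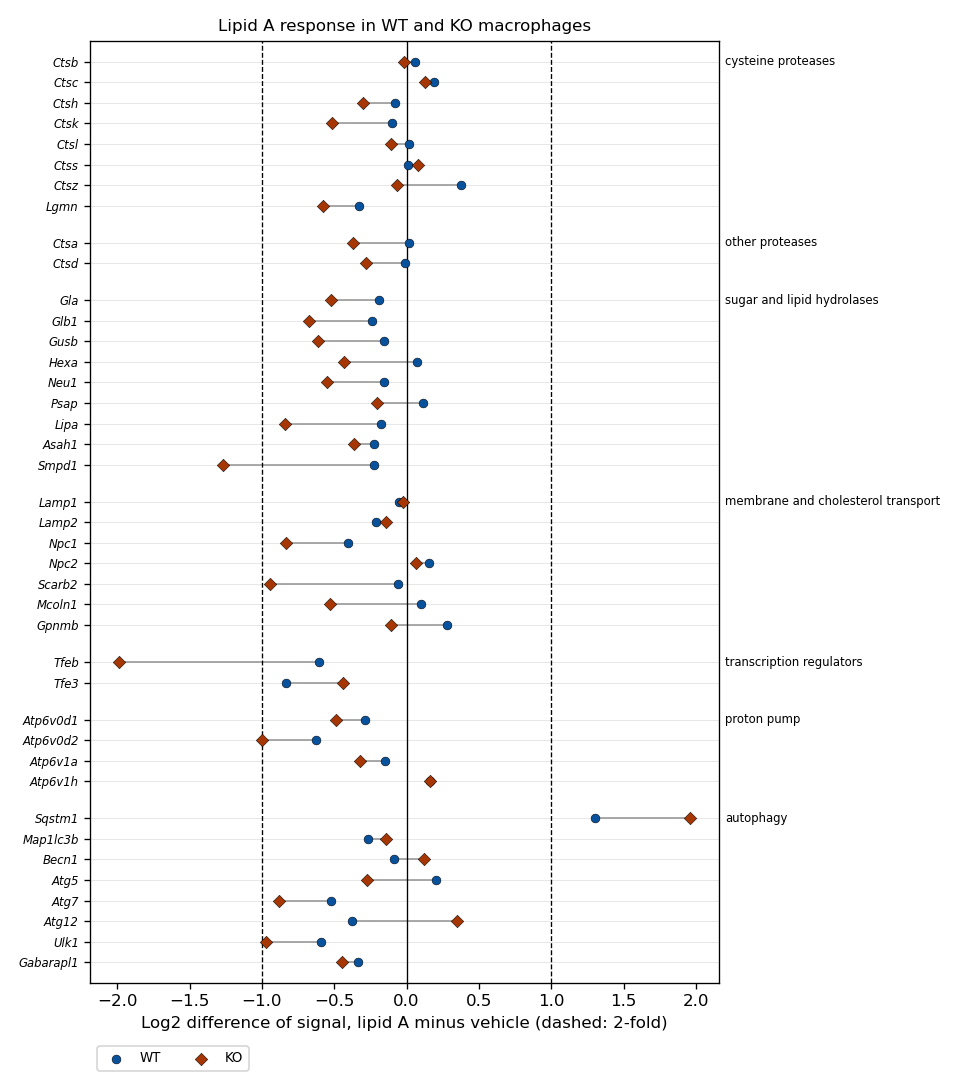
Log2 difference of signal, lipid A minus vehicle, for each of the 40 genes in WT (circles) and KO (diamonds), with 1 array per condition and dashed lines at 2-fold. Sqstm1 stands right of the 2-fold line in both genotypes, and Tfeb and Smpd1 stand left of it in KO alone, at -1.99 and -1.27.

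KO was then set against WT under each treatment. Under vehicle none of the 40 genes differed by over 2-fold, where 11.1% of the 12002 detected genes were over 2-fold higher in KO and 6.17% over 2-fold lower. Lower in KO by any amount were 15 of 40 genes, beside 41.9% of detected genes, but with each array centred on its own median this became 39 of 40 beside 70.7%. The median was 0.091 over the 40 genes and 0.097 over detected genes. With lipid A none was over 2-fold higher in KO, against 10.6% of the 12335 detected genes, and 2 were over 2-fold lower, Tfeb and Ctsk, against 10.3%. The median was then -0.16 over the 40 genes and -0.013 over detected genes, and 29 of 40 were lower in KO beside 50.8% of detected genes. Between KO and WT 39 of 40 genes (97.5%) lay within 1.5-fold under vehicle and 34 of 40 (85%) under lipid A, beside 68.7% and 63.1% of detected genes.

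**Figure D3:**
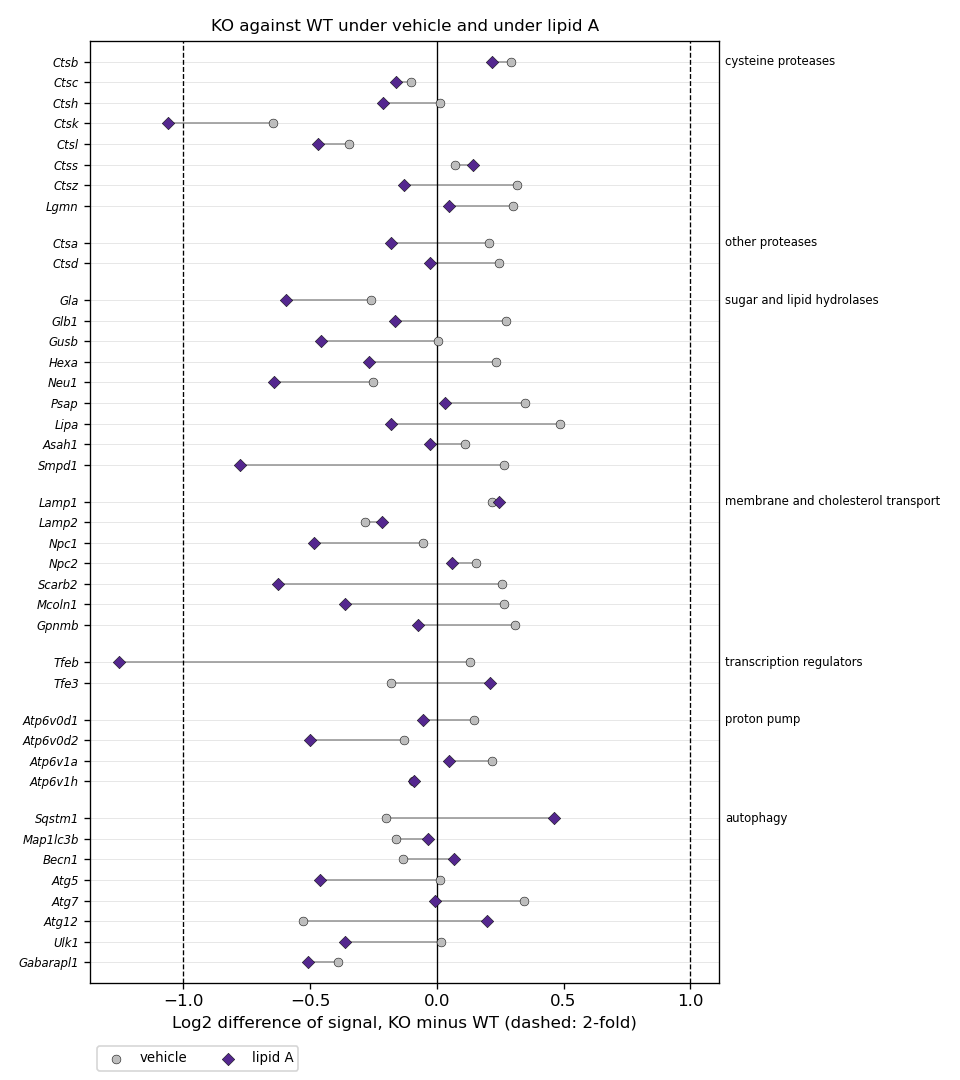
Log2 difference of signal, KO minus WT, for each of the 40 genes under vehicle (circles) and lipid A (diamonds), with 1 array per condition and dashed lines at 2-fold. No circle passes 2-fold, and the diamonds of Tfeb and Ctsk lie beyond the lower line at -1.25 and -1.06.

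**Figure D4:**
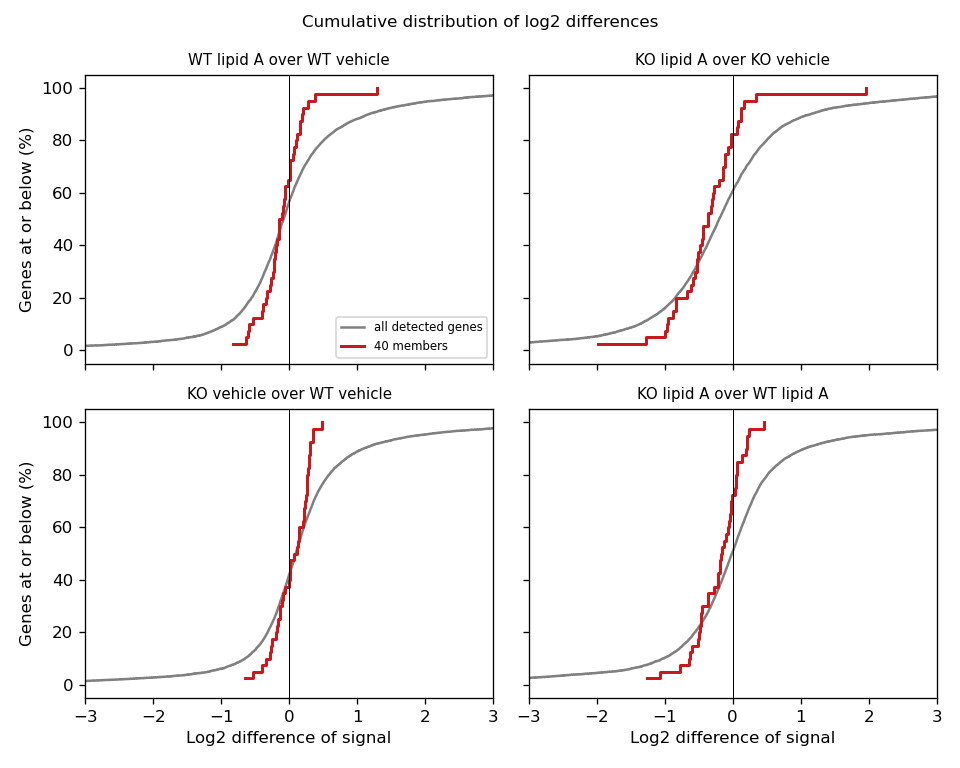
Cumulative share of genes (y axis, percent) by log2 difference (x axis, drawn from -3 to 3) for the 40 genes and for all detected genes in each comparison of single arrays. The curve of the 40 genes is the steeper one in each panel, but the detected genes were not matched to them for signal. In KO after lipid A the curve of the 40 genes runs left of the other near the middle, with medians of -0.37 and -0.20.

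The spread between probe sets of one gene gave the only measure of error within these data, and it holds no error between mice. The 40 genes have 91 probe sets, 80 of them at or above the median on all 4 arrays, and 26 genes have at least 2 such probe sets. Pooled over genes, the SD of the log2 differences of one gene's probe sets was 0.26 for the WT response and 0.32 for the KO response. For KO over WT it was 0.39 under vehicle and 0.42 under lipid A. Differences larger than this SD were seen in 14 and 24 of the 40 genes for the WT and KO responses, and in 4 and 13 for KO over WT under vehicle and lipid A. All probe sets of a gene pointed one way in 12, 22, 16 and 15 of the 26 genes in the same order. Neither kind of count was taken over all detected genes, whose median response was also lower in KO (-0.20) than in WT (-0.082). The counts therefore describe the 40 genes alone.

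The transcription regulators are given first. Tfeb had signals of 602, 396, 659 and 166, where WT vehicle and WT lipid A come before KO vehicle and KO lipid A, an order used for all sets of 4 signals below. Both vehicle arrays were the highest and the KO lipid A array stood lowest. The log2 response to lipid A was -0.60 in WT and -1.99 in KO, a fall of 3.97-fold in KO. KO over WT was 0.13 under vehicle and -1.25 under lipid A. Tfe3, the paralogue of Tfeb with a shared DNA motif, read 1463, 823, 1289.8 and 952. Here the WT lipid A array was the lowest, with responses of -0.83 in WT and -0.44 in KO, so the regulators did not share an order of the arrays. Each of them has 1 probe set, so that no second reading exists.

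Sqstm1 carried the largest increase. Its signals of 12417, 30555, 10817 and 42099.5 put both lipid A arrays above both vehicle arrays, and the KO lipid A array above the WT one. KO over WT was -0.20 under vehicle and 0.46 under lipid A. A dimmer Sqstm1 probe set read 208, 475, 132 and 429, with responses of 1.19 in WT and 1.71 in KO. Both probe sets were thus over 2-fold higher after lipid A in both genotypes, but KO over WT under lipid A was -0.15 in the dimmer one, opposite in sign to the brighter one.

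**Figure D5:**
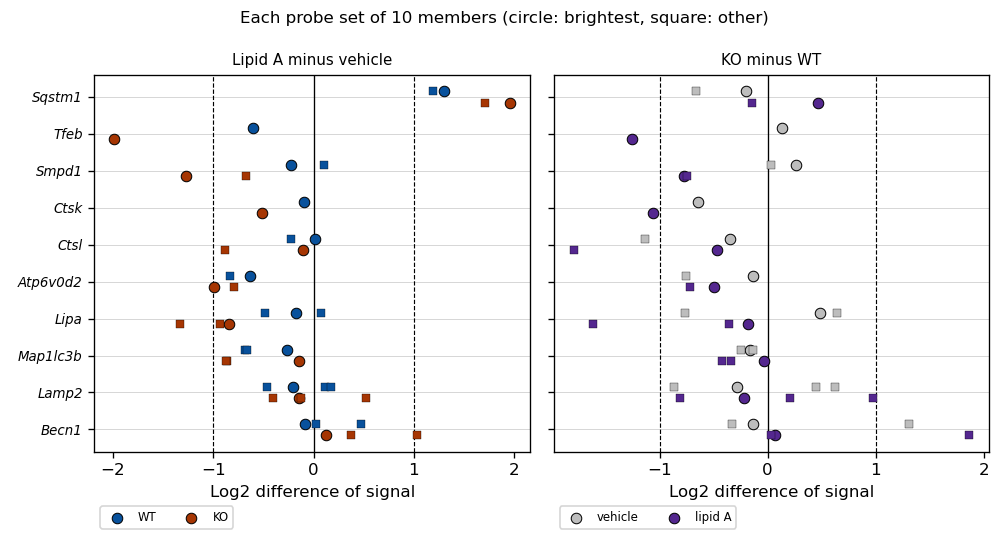
Log2 differences of every probe set at or above the median on all 4 arrays for 10 genes, chosen after their values were seen, as lipid A minus vehicle (left) and KO minus WT (right). Circles are the brightest probe sets and squares the others, dashed lines mark 2-fold, and both Sqstm1 probe sets lie beyond 2-fold on the left while those of Lamp2, Lipa and Becn1 lie on both sides of 0 on the right.

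By their brightest probe sets the 7 other autophagy genes stayed within 2-fold. Map1lc3b, which codes for LC3B, the protein joined to lipid on the autophagosome membrane, read 11558, 9598, 10345 and 9374. Its brightest probe set differed by -0.27 and -0.14 after lipid A in WT and KO, while 2 others gave -0.68 and -0.66 in WT and -0.86 and -0.87 in KO. All of these readings were below 0 and none reached 2-fold. Gabarapl1, of the same protein family, read 8462, 6718, 6452 and 4725 and was lowest on the KO lipid A array. Its values were -0.33 and -0.45 for lipid A and -0.39 and -0.51 for KO over WT. Ulk1, the kinase that starts autophagosome formation, read 673, 447, 681 and 347. Its responses were -0.59 in WT and -0.97 in KO, just short of 2-fold in KO. Atg7, the E1-like enzyme of LC3 and ATG12 conjugation, read 602, 419, 765 and 416. Both lipid A arrays were below both vehicle arrays for Ulk1 and for Atg7, with Atg7 responses of -0.52 and -0.88. The 3 readable Atg7 probe sets were all lower after lipid A in KO, while in WT a dim one was higher (0.54).

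Conjugation partners of ATG7 gave other patterns. Atg5 read 1819.9, 2091, 1836 and 1519.9 in its brightest probe set, higher after lipid A in WT (0.20) and lower in KO (-0.27). Its other probe sets were lower in both genotypes, at -0.10 and -0.45 in WT and -0.053 and -0.42 in KO. The direction in WT is thus not settled. Atg12, the ubiquitin-like protein joined to ATG5, read 2953, 2275, 2046 and 2606. Atg12 had signs opposite to those of the brightest Atg5 probe set, -0.38 in WT and 0.35 in KO. It also had the largest positive difference between the responses, 0.73. In 3 of 3 Atg12 probe sets KO was below WT under vehicle, at -0.53, -1.18 and -0.56, and the KO response was above 0. Becn1, a subunit of the lipid kinase complex that acts at the start of autophagy, read 5121, 4831, 4665 and 5068, and its lowest and highest arrays were KO vehicle and WT vehicle. A dim Becn1 probe set read 90.1, 125, 223 and 458 and was over 2-fold higher in KO under both treatments (log2 1.31 and 1.87), which the brightest one was not (-0.13 and 0.069).

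The 9 sugar and lipid hydrolases were all lower after lipid A in KO, with a median of -0.55, where 60.6% of detected genes were lower. In WT 7 of 9 were lower, with a median of -0.18, beside 56.5%. With median centring all 9 were lower in both genotypes, with medians of -0.40 in KO and -0.37 in WT, beside 52.4% and 69.0% of detected genes. Smpd1 read 2005, 1713, 2408 and 999, and its KO lipid A array was the lowest by a wide margin. The responses were -0.23 in WT and -1.27 in KO, a 2.41-fold drop in KO. A dimmer Smpd1 probe set read 261, 282, 268 and 168 and gave 0.11 and -0.68, lower in KO but within 2-fold. Under lipid A KO over WT was -0.78 and -0.75 in the 2 probe sets. Lipa, the lysosomal acid lipase that frees cholesterol from its esters, read 28389.9, 25146, 39746 and 22209. KO vehicle was the highest array and KO lipid A the lowest, with responses of -0.18 in WT and -0.84 in KO. Other Lipa probe sets gave -0.94 and -1.34 for the KO response, so that 3 of 3 were lower and 1 passed 2-fold. For KO over WT under vehicle the 3 readings were 0.49, 0.64 and -0.76, which differ in sign.

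The glycosidases showed smaller steps of the same kind. Glb1, the lysosomal beta-galactosidase, read 3537, 3003, 4271 and 2678 and responded by -0.24 in WT and -0.67 in KO. Gusb, the beta-glucuronidase, read 35868, 32217, 35978 and 23489 and responded by -0.15 and -0.62. In both the KO lipid A array was the lowest of the 4. Hexa, the alpha subunit of beta-hexosaminidase, read 33494, 35169, 39418 and 29179, with responses of 0.07 and -0.43. Gla, the alpha-galactosidase, read 9108, 7985, 7607 and 5285. It was lower in KO than in WT under vehicle (-0.26) and lipid A (-0.60). Neu1, a sialidase, read 1996, 1794, 1678 and 1149 and was also lower in KO under both, at -0.25 and -0.64. Asah1, the acid ceramidase that acts on the product of SMPD1, read 19985, 17096, 21569.7 and 16763 and responded by -0.23 and -0.36. Psap, the precursor of the saposins that present lipids to these enzymes, read 75271, 81347, 95731 and 83175. It stayed within 1.5-fold in all comparisons, from -0.20 to 0.35.

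Of the 8 cysteine proteases 1 passed 2-fold in 1 comparison. Ctsk codes for cathepsin K, the collagen-degrading protease best known from osteoclasts, and read 31728, 29630.4, 20245 and 14190.2. Both KO arrays were below both WT arrays, with KO over WT at -0.65 under vehicle and -1.06 under lipid A. Its lipid A response was -0.10 in WT and -0.51 in KO, and it has 1 probe set. Ctsl, cathepsin L, read 62654, 63316, 49332 and 45716 and had the same order, KO over WT being -0.34 and -0.47. A dimmer Ctsl probe set read 867, 741, 394 and 214 and was over 2-fold lower in KO under both treatments, at -1.14 and -1.80.

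In the brightest probe sets the other 7 cysteine proteases, Ctsd and Ctsa stayed within 1.5-fold in all 4 comparisons. Ctss, cathepsin S, which trims the invariant chain of MHC class II, read 88119, 88739.8, 92625 and 97849 and stayed between 0.01 and 0.14 in all 4 comparisons. Ctsb, cathepsin B, read 78328, 81407, 95838 and 94632, and both KO arrays were above both WT arrays (0.29 and 0.22). Its other probe sets were also higher in KO under vehicle, from 0.25 to 0.59. Under lipid A they gave -0.0082, 0.032, -0.33 and 0.014, so the sign there is not settled. Lgmn, the asparaginyl endopeptidase legumain that matures other cathepsins, read 16416, 13079.5, 20209.8 and 13536. Its 2 lipid A arrays were the lowest, at -0.33 in WT and -0.58 in KO. Ctsz, a carboxypeptidase, read 63524, 82405, 79016 and 75392, with the WT vehicle array as the lowest. In its other probe sets both KO arrays were below both WT arrays instead. KO over WT under vehicle was -0.32 and -0.097 in these and 0.31 in the brightest, so its sign is not settled. Ctsc, which activates serine proteases of granules, read 10585, 12045, 9874 and 10768 and was higher after lipid A in both genotypes (0.19 and 0.13). Ctsh, an aminopeptidase, read 7849.7, 7442, 7911 and 6421 and was lowest on the KO lipid A array. Its second probe set read 5229, 4615, 5691 and 4990, with the WT lipid A array as the lowest. The aspartic protease cathepsin D (Ctsd) read 50497, 50151, 59875 and 49235, and the serine carboxypeptidase cathepsin A (Ctsa), which also protects GLB1 and NEU1, read 30032, 30449.8, 34638 and 26849. In both the KO vehicle array was the highest, with KO responses of -0.28 and -0.37 and WT responses of -0.0099 and 0.02. A dim Ctsa probe set read 279.8, 224, 450.3 and 167, with the same order of the KO arrays and a KO response of -1.43.

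Membrane proteins and cholesterol carriers gave no call by their brightest probe sets. Scarb2 codes for LIMP-2, the receptor that carries glucocerebrosidase to the lysosome, and read 4849, 4654, 5799 and 3012. Its KO lipid A array was the lowest, with responses of -0.059 in WT and -0.94 in KO, and a second probe set gave -0.16 and -0.43. Npc1, the membrane exporter of lysosomal cholesterol, read 4358, 3291, 4199.5 and 2354, with both lipid A arrays below both vehicle arrays. It responded by -0.41 and -0.83. Npc2, the soluble protein that hands cholesterol to NPC1, read 41403, 46158, 46018 and 48169 and was higher after lipid A by 0.16 in WT and 0.066 in KO. Another bright Npc2 probe set was also higher (0.18 and 0.22), but a dimmer one was lower (-0.021 and -0.11). A difference in sign between Npc1 and Npc2 is thus not settled. Mcoln1, the calcium channel of the lysosomal membrane, read 3655, 3908, 4391 and 3044 and responded by 0.10 in WT and -0.53 in KO. KO over WT under lipid A was -0.36 in this probe set, -0.25 in a second and 1.09 in a dim one, so its sign is not settled. Gpnmb, a glycoprotein of macrophages under lysosomal load, read 82852, 100350.0, 102721 and 95404, with the WT vehicle array as the lowest.

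The structural proteins of the lysosomal membrane were among the steadier readings in the brightest probe sets. Lamp1 read 44484, 42821, 51664 and 50758 and differed by -0.055 after lipid A in WT and by -0.026 in KO. KO was above WT at 0.22 and 0.25. Lamp2, also needed for chaperone-mediated autophagy, read 24996, 21618, 20558 and 18620.4, and KO over WT was -0.28 and -0.22. Its 3 other probe sets gave -0.81, 0.21 and 0.97 under lipid A, so Lamp2 had no settled direction.

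The proton pump (V-ATPase) acidifies the lysosome. Atp6v0d2, the form of subunit d found in osteoclasts and macrophages, read 30070.3, 19443, 27466 and 13762, and both lipid A arrays were below both vehicle arrays. Its responses were -0.63 in WT and -0.997 in KO, the latter just under 2-fold. A second probe set read 25890.4, 14524, 15322 and 8848 and gave -0.83 and -0.79, so that the difference between genotypes in the first was not seen there. The widely expressed form Atp6v0d1 read 16385, 13454, 18158 and 12966, with -0.28 and -0.49 after lipid A. The catalytic subunit Atp6v1a read 28005, 25249, 32606 and 26084, with -0.15 and -0.32. A second Atp6v1a probe set read 22966, 15376, 15837 and 13132, with -0.58 and -0.27. Which genotype fell more is thus not settled. KO over WT under vehicle also differed in sign, at 0.22 and -0.54. Atp6v1h, a regulatory subunit, read 10938, 12236, 10259 and 11484 and was higher after lipid A by 0.16 and 0.16.

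The lipid A responses of the genotypes were then set side by side. The KO response was below the WT response in 31 of 40 genes, beside 56.5% of the 10870 genes detected in both, with a median difference of -0.29 for the 40 genes and -0.090 for all. With each array centred on its median this count was 18 of 40 beside 32.6% of genes, with medians of 0.058 and 0.26, so the sign rests on the scaling while the median of the 40 genes was the lower one both times. On the deposited scale and in the brightest probe sets, Tfeb (-1.38) and Smpd1 (-1.04) had differences over 2-fold. Scarb2 (-0.89), Lipa (-0.66) and Mcoln1 (-0.63) followed. The second Smpd1 probe set responded by 0.11 in WT and -0.68 in KO, a difference within 2-fold. The largest positive values belonged to Atg12 (0.73), Sqstm1 (0.66) and Tfe3 (0.39). Among the sugar and lipid hydrolases 9 of 9 responses were lower in KO than in WT with a median of -0.44, and 6 of 9 with a median of -0.086 under median centring. In the cysteine proteases it was 7 of 8 with a median of -0.17, which turned to 2 of 8 with a median of 0.18 under median centring. In the autophagy genes it was 4 of 8 with a median of 0.0047, and 3 of 8 with 0.36 under median centring. At the level of probe sets 54 of 80 were lower and 26 higher, on the deposited scale alone. These probe sets belong to the same 40 genes, and no share over all probe sets was taken beside them. None of these differences was tested, since each response rests on 1 array against 1.

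Genes with and without the E-box were set side by side. The 6 genes with TCACGTGA had a median KO response of -0.43, all 6 below 0 and between -0.53 and -0.28. The 26 other genes of the promoter table had a median of -0.44, with 22 of 26 below 0. In WT the medians were -0.080 and -0.13. KO over WT was 0.21 and 0.10 under vehicle and -0.12 and -0.17 under lipid A.

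A wider list of 151 further lysosome and autophagy genes, of which 137 were measured, was read in the same way. In WT 2 of 135 detected genes were over 2-fold higher after lipid A and 6 lower, beside 11.8% and 8.94% of all detected genes. In KO 7 of 136 were higher and 21 lower, beside 11.2% and 16%. The medians were -0.14 in WT and -0.42 in KO, beside -0.082 and -0.20 over all detected genes. KO over WT under vehicle gave 5 higher and 4 lower of 134, beside 11.1% and 6.17%, with medians of 0.032 and 0.097. With median centring, an alternative added after the data were seen, these counts were 2 and 11. Under lipid A 3 were higher and 6 lower of 136, beside 10.6% and 10.3%, with medians of -0.26 and -0.013. Rragd, a small GTPase that ties nutrient sensing at the lysosome to TFEB, read 1521, 615, 1259 and 267. Rragd was lowest on the KO lipid A array, with responses of -1.31 in WT and -2.24 in KO and KO 2.3-fold below WT under lipid A. Irgm1, an interferon-induced GTPase with a role in autophagy, read 2686, 13953, 1074 and 7722 and was 5.2-fold and 7.19-fold higher after lipid A in WT and KO. Calcoco1, an autophagy receptor, read 202, 79.6, 237 and 118 and was over 2-fold lower in both. Tpcn1, a cation channel of endolysosomes, read 328, 148, 509 and 93.8 and was 5.42-fold lower in KO after lipid A. Ncoa4, the receptor for autophagy of ferritin, read 15484, 9728, 9834 and 4119.7, and KO was 2.36-fold below WT under lipid A.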

How the data were processed

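Total RNA of the 4 conditions was hybridised to Affymetrix mouse expression arrays, 1 array per condition. The authors deposited a table of probe set values, which are intensity signals on a linear scale. The sources used here do not name the software behind them, and the trimmed mean (2% at each end) is 500.004 on all 4 arrays.

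Of 45101 probe sets 64 controls were left out. The platform annotation gives 1 gene symbol for 34945, several for 932 and none for 9160, and only the first were named. The brightest probe set stood for a gene. Signals were log2-transformed without further normalization, and the array median stood in for the present and increased calls of the methods, which were not used here. All 40 members, and up to 3 genes of the wider list per comparison with the largest difference among those at or above the median on both arrays and over 2-fold different, were named. The members and lists were chosen with earlier results of these data known. Medians and counts are descriptions, since 1 array per condition allows no test. Alternatives were 3 scalings, 3 filters or floors, an offset of 50, other probe set rules and thresholds of 1.5-fold and 3-fold. Motifs were searched by exact match in RefSeq promoters (GRCm38.p6). Python 3.11.15, numpy 2.4.6, pandas 2.3.3 and matplotlib 3.10.9 were used.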

Additional observations from a re-analysis of the deposited data

Results flagged for a closer look

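No gene of the set had responses over 2-fold in opposite directions in the 2 genotypes. In the wider list the measured values of Calcoco2, an autophagy receptor known as NDP52, did, but they rest on signals near or below the array medians. Its signals were 74.2, 18, 2.52 and 86.0 on the vehicle and lipid A arrays of WT and then of KO, beside medians of 65.1, 74.8, 84.2 and 75.8. The log2 differences as measured were -2.04 and 5.10 after lipid A in WT and KO, and -4.88 and 2.26 for KO over WT under vehicle and lipid A. With the lower signal of each pair set to the median of its array none of these 4 reaches 2-fold, so they show no direction. The difference between the genotypes was not tested.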

How the results depend on the processing

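The scaling of the arrays moved the medians most. With each array centred on its median, the median over the 40 genes for KO over WT under vehicle was -0.279 in place of 0.091, and that over all detected genes moved with it, from 0.097 to -0.273; the number of the 40 genes over 2-fold different was then 2 for the WT response and 1 for KO over WT under vehicle. Relative to all detected genes the medians of the 40 genes were -0.042, -0.17, -0.0057 and -0.15 for the WT response, the KO response, and KO over WT under vehicle and lipid A, and with quantile normalization -0.085, -0.29, -0.027 and -0.19. Quantile normalization gave 5 genes over 2-fold different for the KO response in place of 3. The median over all probe sets of a gene gave 2 for the WT response, 4 for KO over WT under vehicle and 5 under lipid A. A threshold of 1.5-fold gave 5, 11, 1 and 6 in the order above, and one of 3-fold gave 0 for the WT response and 0 for KO over WT under lipid A. Of the called genes, Sqstm1 passed 2-fold in both responses in all 8 settings run for single genes, the reported one included (1.10 to 2.12). Tfeb (KO response -1.99 to -1.71) and Ctsk (KO over WT under lipid A -1.19 to -1.06) passed in all 7 that apply to a gene with 1 probe set. These counts include settings that can only repeat the reported value. Raising signals below the array median to it changes none of these genes, and the median over probe sets cannot change Tfeb or Ctsk. Smpd1 was lost with the median over probe sets and with its second probe set (-0.68). Genes that passed only under a scaling were Tfe3 (WT response -1.03) and Ctsk (KO over WT under vehicle -1.02) with median centring, and Atp6v0d2 and Scarb2 (KO response -1.08 and -1.01) with quantile normalization. No called direction of a single gene turned. Of the values of single genes 1004 stayed within the probe set spread and 60 did not, but this count does not measure stability. Part of it was fixed in advance, by settings that cannot change a gene above the median on all arrays or with 1 probe set. A value could also change sign within the spread. For Ulk1, KO over WT under vehicle went from 0.018 to -0.35 with median centring. No paired analysis was possible because each condition has 1 array. The precision is limited by the number of arrays, and no error between mice exists.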

Other observations

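Outside the 40 genes, single lysosomal enzymes differed more between the genotypes than any member of the set. Acp5, the tartrate-resistant acid phosphatase of osteoclasts and macrophages, read 2019, 2319.5, 293 and 2976 on the vehicle and lipid A arrays of WT and then of KO. Its KO vehicle array alone was low, 6.9-fold below WT vehicle, and it was 10.2-fold higher in KO after lipid A. Hgsnat and Naglu are successive enzymes of heparan sulfate breakdown. Hgsnat read 2582, 1904, 11906 and 10676, with KO 4.61-fold and 5.61-fold above WT under vehicle and lipid A, while Naglu read 4940.3, 4691, 3170.4 and 1824, with KO 2.57-fold below WT under lipid A. Each of these 3 genes has 1 probe set.

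Of 13 further proton pump subunits 3 were over 2-fold higher in KO under vehicle, beside 11.1% of all detected genes, and none was over 2-fold different between KO and WT under lipid A. With each array centred on its median or its 75th percentile, tried after the data were seen, 1 of the 3 passed, Atp6v0a1, and with quantile normalization Atp6v0a1 and Tcirg1. Atp6v0a1 read 1295, 1014, 4240.4 and 1314 and was 3.27-fold higher in KO under vehicle. Tcirg1 (subunit a3) read 4195, 5179, 8680.1 and 6237 and Atp6v0a2 read 302, 429, 614 and 359.7, at 2.07-fold and 2.03-fold, just past the threshold. All 3 code for isoforms of subunit a and were named after their values were seen, except Atp6v0a1. None of the 4 subunits of the set passed 2-fold in any comparison.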
